A study of Rattus norvegicus with 12 samples.

Results

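Cytosolic ribosomal proteins are the protein components of the ribosome, the machine that translates messenger RNA into protein. The genes described here were chosen by name: probe sets of a rat expression array that carry a single gene symbol of the form Rpl or Rps followed by a number, together with Rplp0, Rplp1, Rplp2 and Rpsa. The rule found 55 probe sets for 48 genes, of 31042 probe sets and 14217 singly named genes on the array. Of the 48 genes, 33 encode proteins of the large subunit and 15 proteins of the small subunit. Rplp1, Rplp2, Rpl10, Rpl38, Rps19 and Rps27a, among others, have no probe set of their own by this rule and were not analysed here. The 48 genes include paralogues such as Rpl26l1 and Rpl3l and do not cover all cytosolic ribosomal proteins.

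RNA came from neural stem cell (NSC) samples of the spinal cord and the brain of Sprague Dawley rats aged postnatal days 3 to 5, and was hybridised to 12 Affymetrix arrays in 4 groups of 3. The groups were spinal cord differentiated, spinal cord proliferative, brain differentiated and brain proliferative. The sample titles mark the differentiated groups with the word fenhua, Chinese for differentiation, and the sources used here do not give how or for how long the cells were differentiated, how many animals were pooled, or whether the replicates of a group are independent cultures. The p-values below therefore measure only the spread between arrays, which may be technical. No genetic change or agent is named in the labels of any group.

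Each ribosome contains 1 copy of nearly every ribosomal protein, and the genes are expressed together at a high level in almost every cell. Most of their transcripts begin with a run of pyrimidines at the cap, the terminal oligopyrimidine (TOP) motif, through which the kinase complex mTORC1 and the RNA-binding protein Larp1 control their translation and stability. Ribosome assembly further needs ribosomal RNA, made by RNA polymerase I and III, and a large set of assembly factors in the nucleolus. Ribosome production is high in growing progenitor cells and is known to be turned down as many lineages, neural ones included, mature.

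The pyrimidine run is visible in the rat genome around the annotated starts of these genes. The windows below run from 15 bases before to 15 bases after the start annotated by RefSeq on build GRCr8, written 5′ to 3′ on the gene's strand, with the longest run of C and T in capitals. The first set shows genes described below whose windows hold a long run.
Rpl35a, chr11:81235007-81235036, minus strand: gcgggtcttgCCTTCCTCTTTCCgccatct
Rpl14, chr8:129163605-129163634, plus strand: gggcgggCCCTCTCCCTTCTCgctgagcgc
Rpl4, chr8:73566462-73566491, plus strand: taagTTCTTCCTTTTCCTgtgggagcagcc
Rps23, chr2:23814502-23814531, plus strand: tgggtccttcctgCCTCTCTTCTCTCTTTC
Rplp0, chr12:46718376-46718405, minus strand: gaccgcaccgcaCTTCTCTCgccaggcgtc

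The second set shows genes from the same results whose windows hold no run of 6 or more, next to a paralogue with a run of 5.
Rpl11, chr5:153560788-153560817, minus strand: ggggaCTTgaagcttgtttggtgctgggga
Rpl18, chr1:105325255-105325284, plus strand: TCTggacctggtctagcaggaggcgccatc
Rpl41, chr7:1563483-1563512, minus strand: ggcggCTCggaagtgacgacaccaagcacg
Rpl26l1, chr10:17029014-17029043, minus strand: aaatgtcaTTTCCgggcctgcgcacacacc

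A promoter was matched for 41 of the 48 genes. A run of at least 6 pyrimidines, C or T in any order and on the gene's strand only, lay within 15 bases of the start in 30 of the 41 (73.2%), against 28.3% of all 27457 RefSeq promoters of the same length. Among the brightest members defined below the count was 25 of 32 (78.1%). The letters CCGGAA, searched on both strands over 250 bases before to 50 bases after the start, were present in 39% of the members' promoters and in 15.8% of all promoters. The TATA-box letters TATAAA, searched the same way, were present in 14.6% of the members' promoters and in 14.3% of all. These matches describe the letters of the reference around annotated starts, which may differ from the starts used in these cells.

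Signals are given as log2 of the deposited MAS5 signal, which scales every array to the same trimmed mean of 500. A difference of 1 is a 2-fold difference in signal. Where a gene had several probe sets, the one brightest on average stood for it, and levels of different genes on an array depend on the probes as well as the RNA, so they order signals and not molecules. The 48 genes fell into a bright set and a dim one. In 38 genes the mean over the 12 arrays was between 13.46 and 14.71, close to the brightest signal on any array (14.79 to 15.18), and all 38 were among the 100 brightest genes. Rpl7l1 (11.24) and Rps27l (10.93) lay between 10 and 13. The remaining 8 genes lay under 10, from Rpl39 at 8.33 down to Rpl3l at 4.13. Within a group of 3 arrays the SD of a bright gene was 0.01 to 0.23, with a median of 0.09, which sets the scale for the differences below.

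**Figure D1:**
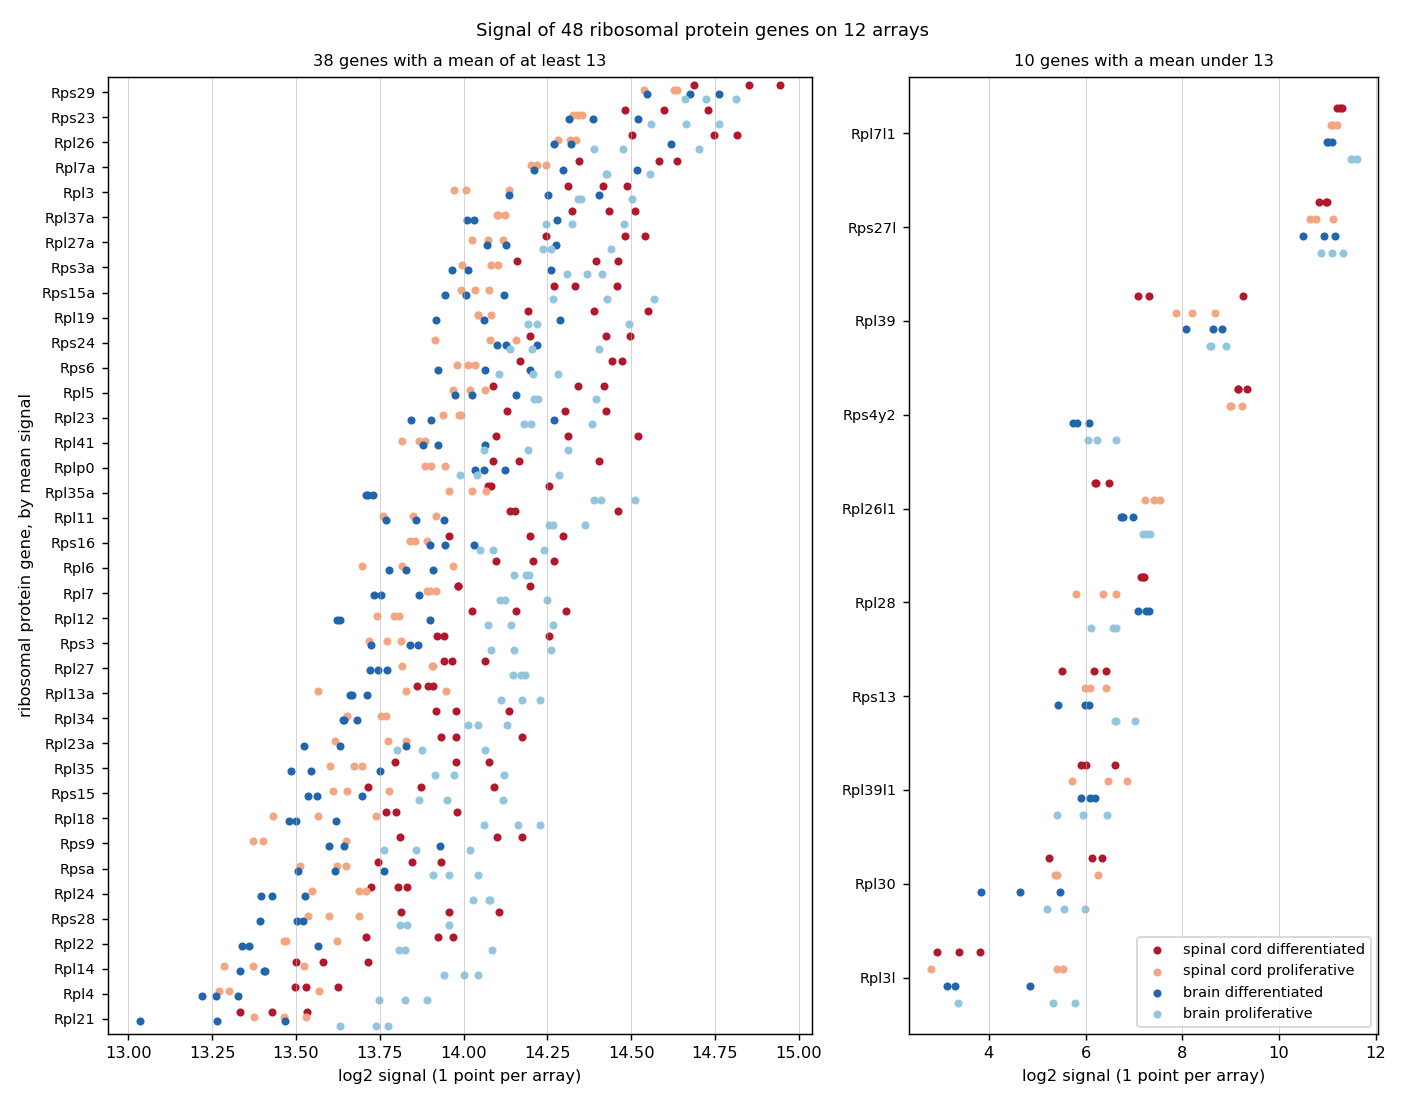
Log2 signal of each of the 48 ribosomal protein genes on each of the 12 arrays, 1 point per array, with genes ordered by mean signal. In the left panel the spinal cord differentiated and brain proliferative points lie to the right of the other groups for most of the 38 bright genes. The right panel shows the 10 genes with a mean under 13 on a wider axis.

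Bright ribosomal protein genes were highest in 2 groups that share neither tissue nor state: spinal cord differentiated and brain proliferative cells. The median signal of the 38 genes on an array was 14.28, 14.15 and 14.05 in spinal cord differentiated cells and 13.89, 13.84 and 13.90 in spinal cord proliferative cells. In brain differentiated cells it was 13.92, 13.77 and 13.80, and in brain proliferative cells 14.11, 14.16 and 14.26. The groups do not overlap within either tissue, and the order of the states is opposite in the 2 tissues. The probe sets standing for all member genes together made up 3.05 to 3.49% of the summed array signal in spinal cord differentiated cells. Further probe sets of the same genes were left out of this share. It was 2.72 to 2.84% in spinal cord proliferative cells, 2.66 to 2.93% in brain differentiated cells and 3.24 to 3.53% in brain proliferative cells. Of the 38 genes, 19 had their highest group mean in spinal cord differentiated cells and 19 in brain proliferative cells. None was highest in the other groups. The lowest group mean was in spinal cord proliferative cells for 20 genes and in brain differentiated cells for 18.

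**Figure D2:**
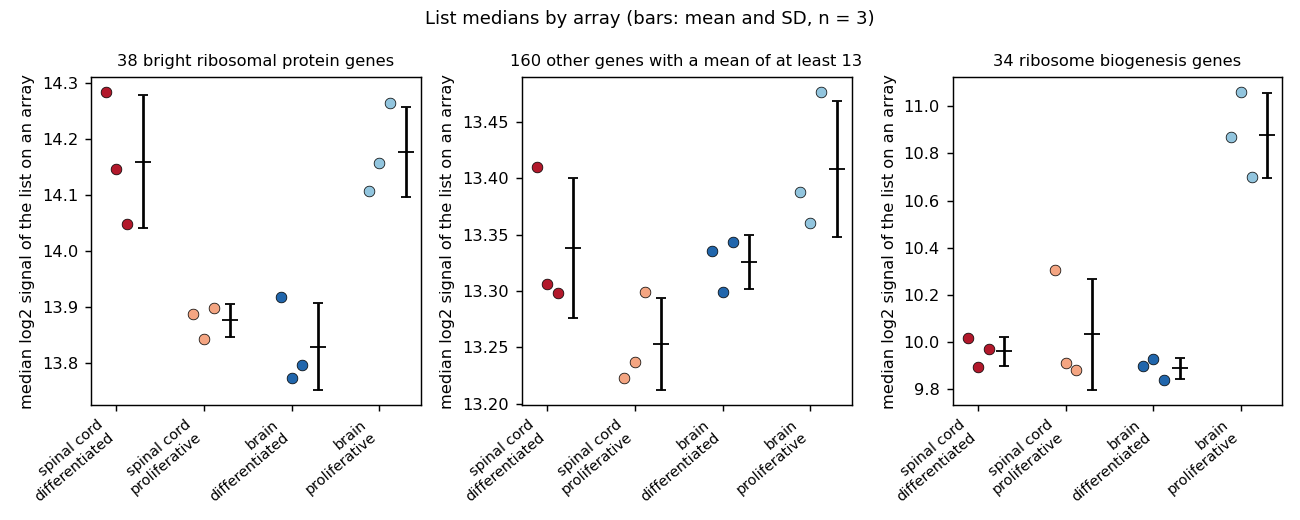
Median log2 signal on each array of the 38 bright ribosomal protein genes, of 160 other genes with a mean of at least 13, and of 34 ribosome biogenesis genes; bars are the mean and SD of 3 arrays and each panel has its own vertical range. The ribosomal protein genes are high in spinal cord differentiated and brain proliferative cells, whereas the biogenesis genes are high in brain proliferative cells only, at 10.70 to 11.06.

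Marker levels of several cell types also differed between these groups. The 4 markers of fibroblasts and mural cells (Dcn, Lum, Lox, Col1a1) averaged 13.80 to 13.94 in spinal cord differentiated cells, 11.00 to 11.84 in spinal cord proliferative cells, 4.43 to 5.19 in brain differentiated cells and 5.42 to 6.10 in brain proliferative cells. All 4 were higher in spinal cord than in brain cells in both states, and 3 of 4 rose on differentiation in spinal cord cells. In brain differentiated cells Dcn, Lum and Lox were under the detection limit used here (each array's own 40th percentile, 5.91 to 6.41) on all 3 arrays. Oligodendrocyte-lineage markers averaged 9.75 to 10.48 in spinal cord differentiated cells against 10.95 to 11.16 in spinal cord proliferative cells, and 10.92 to 11.07 in brain differentiated cells against 6.90 to 8.40 in brain proliferative cells. Of these 4 markers, 0 rose and 2 fell on differentiation in spinal cord cells, and 3 rose and 0 fell in brain cells. Within each tissue the group with the lower ribosomal protein signal had the higher oligodendrocyte-lineage average. The microglial averages, given under the other observations, had the same order, though 2 of 4 markers had a positive change in spinal cord cells. Astrocyte averages had this order in brain cells only, and neuronal averages in spinal cord cells only. Fibroblast and mural averages had the opposite order in both tissues. Progenitor and cycling averages overlapped between the states in brain cells. Astrocyte markers averaged 11.01 to 11.12 in spinal cord differentiated cells against 10.16 to 10.73 in spinal cord proliferative cells, and 13.12 to 13.26 in brain differentiated cells against 10.13 to 10.92 in brain proliferative cells. Of these 4 markers, 3 rose and 1 fell on differentiation in spinal cord cells, and all 4 rose in brain cells. The 5 markers of neural stem cells and progenitors averaged 11.04 to 11.13 in spinal cord differentiated cells, 11.65 to 11.73 in spinal cord proliferative cells, 12.32 to 12.37 in brain differentiated cells and 12.11 to 12.68 in brain proliferative cells. On differentiation 1 of them rose and 2 fell in spinal cord cells, and 3 rose and 1 fell in brain cells. The 5S ribosomal RNA control probe set read 8.09 to 8.75 in spinal cord differentiated, 8.65 to 9.38 in spinal cord proliferative, 7.85 to 8.19 in brain differentiated and 9.50 to 11.02 in brain proliferative cells. The part of these differences in the ribosomal protein signals was not tested, and a change in the mix of cells and a change within cells cannot be told apart in these bulk RNA samples.

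The first question was how the genes respond to differentiation in spinal cord cells. Ribosomal protein genes rose together, by small amounts: 30 of the 46 tested genes were higher in differentiated cells and 1, Rpl26l1, was lower (limma with Benjamini-Hochberg adjustment over 20834 probe sets, adjusted p under 0.05, the threshold for a call throughout). Of all 11218 genes tested, 20.9% rose and 22.6% fell. The median log2 change was 0.28 for the ribosomal protein genes and -0.04 for all genes. Both subunits took part: 19 of 31 large-subunit genes and 11 of 15 small-subunit genes rose, with medians of 0.29 and 0.27. Of the 38 bright genes, 37 had a positive change, and the exception, Rpl21, named after its value was seen, had -0.02. Other genes with a mean of at least 13 moved in both directions, with 39 of 160 rising, 27 falling, a median of 0.08 and single changes between -1.70 and 2.12.

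The size of this count depends on single arrays and on scaling. It was 13 without spinal cord differentiated replicate 1, 16 without replicate 2, 18 with no filter on dim probe sets, 15 without the intensity trend in the variance and 3 after quantile normalisation, where the median was 0.06 and 29 of the 38 bright genes kept a positive change. The array medians above show the same ordering of the replicates, with replicate 1 the highest of the 3.

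Rps9, a small-subunit protein of the decoding region, had the largest change among the bright genes. Its signals were 14.18, 14.10 and 13.81 in spinal cord differentiated cells against 13.65, 13.37 and 13.40 in spinal cord proliferative cells. The groups did not overlap and the log2 change was 0.55 ± 0.12 (SE, limma adjusted p = 0.00215). Rpl41, the smallest ribosomal protein, read 14.52, 14.31 and 14.10 in differentiated cells against 13.81, 13.89 and 13.87 in proliferative cells, a change of 0.45 ± 0.10 (SE, limma adjusted p = 0.00293). Both calls held in each of the 12 fits that left out 1 array and after quantile normalisation.

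Rpl11, which with Rpl5 and 5S ribosomal RNA forms the particle that can bind the p53 regulator Mdm2, read 14.46, 14.14 and 14.15 in spinal cord differentiated cells against 13.92, 13.76 and 13.85 in proliferative cells. All differentiated values were above all proliferative ones, and the change was 0.41 ± 0.09 (SE, limma adjusted p = 0.00274). Rpl12, a protein at the base of the stalk that recruits elongation factors, rose by 0.38, and Rpl3, which reaches towards the peptidyl transferase centre, by 0.37. Rps6, the small-subunit protein phosphorylated by the S6 kinases downstream of mTORC1, rose by 0.35, and Rps28, near the messenger RNA exit, also by 0.35. These 5 calls held in all 12 fits that left out 1 array and none held after quantile normalisation. Rpl26, known to bind the p53 messenger RNA, rose by 0.38, Rpl22 by 0.35 and Rplp0, the core of the stalk, by 0.31. Of these, the Rpl26 and Rpl22 calls were lost without spinal cord differentiated replicate 1 or 2 and the Rplp0 call without replicate 1. Rps29 rose by 0.23, a call lost in 8 of the 12 fits that left out 1 array, and had an uncalled -0.03 after quantile normalisation. Rpl18 and Rps3 each rose by 0.27, Rps23 by 0.26 and Rpsa by 0.25, and all 4 calls were lost without spinal cord differentiated replicate 1, without spinal cord proliferative replicate 2 and after quantile normalisation.

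In brain cells the question was the same and the direction was opposite. Of the 46 tested genes, 25 fell on differentiation and 1, Rpl28, rose, against 28.5% falling and 24.1% rising among all genes tested. The median log2 change was -0.34 for the ribosomal protein genes and -0.06 for all genes. All 38 bright genes had a negative change, 23 of them called, and the sign was negative in 36 when arrays were centred on the other bright genes and in 34 after quantile normalisation. Other genes as bright had 56 of 160 falling, 32 rising and a median of -0.04. By subunit, 17 of 31 large-subunit and 8 of 15 small-subunit genes fell. Of the 25 calls, 21 held in each of the 12 fits that left out 1 array, and 22 held after quantile normalisation. The fall was larger in the dimmer 19 of the bright genes (means of 13.46 to 14.01), with a median of -0.41 and 17 called, than in the brighter 19 (14.02 to 14.71), with a median of -0.21 and 6 called. The rise in spinal cord cells did not show this order: its median was 0.27 with 11 called in the dimmer genes and 0.31 with 18 called in the brighter ones. Whether signals near the top of the scale were compressed was not tested.

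Rpl35a, a large-subunit protein whose human gene is mutated in some cases of Diamond-Blackfan anaemia, had the largest fall among the bright genes. Its signals were 13.71, 13.73 and 13.71 in brain differentiated cells against 14.41, 14.39 and 14.51 in brain proliferative cells. The gap between the groups was several times the spread within either, and the log2 change was -0.72 ± 0.07 (SE, limma adjusted p = 2.7e-06). Its promoter window, shown above, holds a run of 13 pyrimidines.

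Rpl14, a large-subunit protein, read 13.41, 13.40 and 13.33 in brain differentiated cells against 13.94, 14.00 and 14.04 in proliferative cells, a change of -0.61 ± 0.08 (SE, limma adjusted p = 3.32e-05). Rpl18 read 13.62, 13.48 and 13.50 against 14.06, 14.16 and 14.23, a change of -0.62 ± 0.09 (SE, limma adjusted p = 9.19e-05). Its window holds no run longer than 3, and whether run length goes with the change was not tested. Rpl24, which forms a bridge between the subunits, changed by -0.61, and Rpl4, whose loop lines the exit tunnel, by -0.55. None of these 5 genes had overlapping groups in brain cells, and each call held in all 12 fits that left out 1 array.

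Further falls were seen for Rpl13a (-0.49), known in human cells as a subunit of a complex that silences inflammatory messages, for Rpl22 (-0.48), Rpl12 (-0.44), Rpl11 (-0.44), Rps28 (-0.39) and Rpl7 (-0.37). Rps3, at the messenger RNA entry channel, fell by 0.36, and Rpsa, also known as a laminin receptor, by 0.34. Rpl7l1, a paralogue of Rpl7 with a signal well below the bright set, fell with them: it read 11.09, 10.99 and 11.02 in brain differentiated cells against 11.52, 11.61 and 11.49 in proliferative cells, a change of -0.50 ± 0.08 (SE, limma adjusted p = 0.000149). These 9 calls held in all 12 fits that left out 1 array.

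Of the 38 bright genes, 15 did not pass the test in brain cells, with changes between -0.25 and -0.03. Rplp0 read 14.12, 14.04 and 14.06 in brain differentiated cells against 13.99, 14.04 and 14.28 in proliferative cells, so the groups overlapped, with a log2 change of -0.03 ± 0.09 (SE, limma adjusted p = 0.807). Rps29, the brightest member, had -0.07 ± 0.08 (limma adjusted p = 0.522). It was called after quantile normalisation, at -0.15. Rpl26 had -0.12, Rpl3 -0.13, Rps6 -0.14, Rps9 -0.16, Rpl5 -0.22 and Rpl41 -0.23, none of them called. Rps23, at the decoding centre, fell by 0.25, a call that was lost without brain proliferative replicate 2 or 3 and without brain differentiated replicate 2 or 3.

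The difference between the responses was tested directly as an interaction, the spinal cord change minus the brain change. It was positive and called in 37 of the 46 genes and negative and called in none, against 23.7% and 21.2% of all genes tested, with a median of 0.56 for the ribosomal protein genes and 0.05 for all genes. Among the 160 other bright genes 54 were called positive and 32 negative, with a median of 0.20. The interaction was positive in all 38 bright genes, and in 37 after quantile normalisation. Of the 37 calls, 33 held in all 12 fits that left out 1 array, and 18 held after quantile normalisation, where the median was 0.24. Rpl18 had the largest value, 0.89 ± 0.13 (SE, limma adjusted p = 0.000106), with 0.27 in spinal cord and -0.62 in brain cells. Rpl11 had 0.85 ± 0.13, with 0.41 in spinal cord and -0.44 in brain cells, and Rpl35a 0.84 ± 0.10, with an uncalled 0.12 in spinal cord and -0.72 in brain cells.

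Of the 30 genes that rose in spinal cord cells and the 25 that fell in brain cells, 14 did both, which is 46.7% of the first list and 56% of the second. The 2 comparisons share no arrays. As a share of the genes tested, 30.4% of the members and 4.41% of all genes rose in spinal cord and fell in brain cells. The calls fell on different sides of the threshold: Rps9, Rpl41, Rpl26, Rpl3 and Rps6 were called only for their rise in spinal cord cells. Rpl35a, Rpl14, Rpl24, Rpl4, Rpl13a and Rpl7 were called only for their fall in brain cells, and Rpl11, Rpl12, Rpl18, Rpl22, Rps28, Rps3, Rpsa and Rps23 for both. Genes were not tested against each other, so these lists do not show that genes differ. Some lay just past the threshold, such as Rpl41 in brain cells (-0.23, limma adjusted p = 0.0755) and Rpl14 in spinal cord cells (0.21, limma adjusted p = 0.0561). For each of these 19 genes the interaction was called, so the tissues differed whichever side carried the call. Rplp0 and Rps29 were also called only for their rise in spinal cord cells, but their interactions were not called. The interaction was 0.34 for Rplp0 (limma adjusted p = 0.0542) and 0.30 for Rps29 (limma adjusted p = 0.0577).

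**Figure D3:**
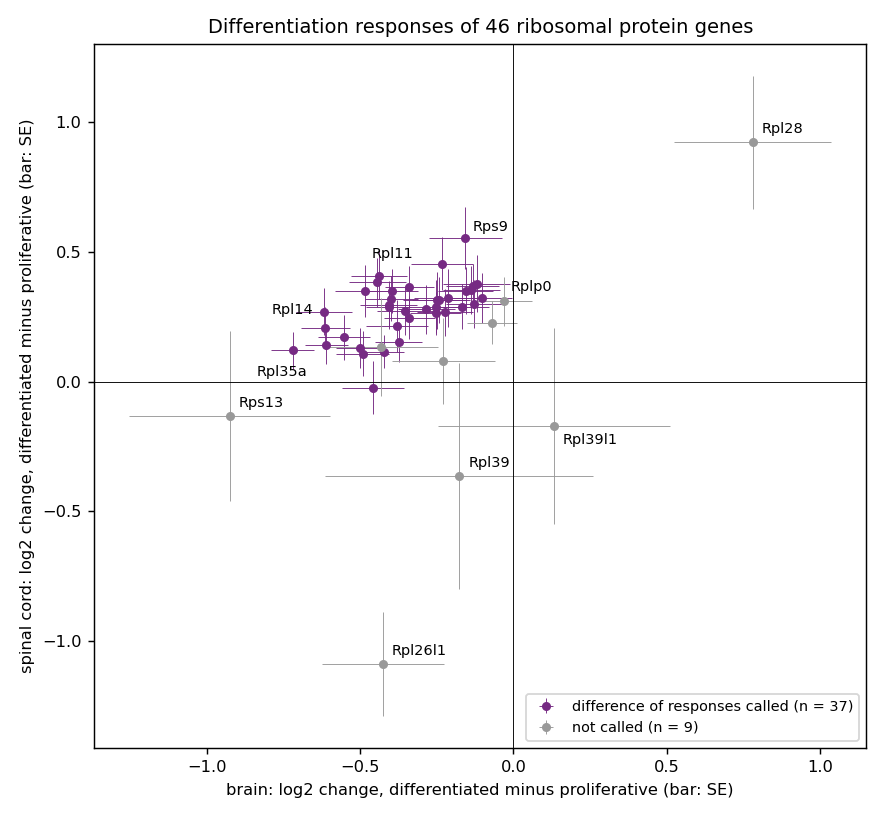
Log2 change on differentiation in brain cells (horizontal) and in spinal cord cells (vertical) of the 46 tested ribosomal protein genes, with standard errors as bars; purple points have a called difference between the responses (37 genes) and grey points do not (9 genes). The purple points gather at the upper left, with a fall in brain and a rise in spinal cord cells, and the grey points away from the cluster, such as Rpl28 and Rpl26l1, are dim genes.

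The tissues were next compared within each state, using the same arrays as the comparisons above, so these values are another view of the same 4 groups. In proliferative cells, 28 of the 46 genes were lower in spinal cord than in brain cells and 1, Rps4y2, was higher, against 22.8% and 21.2% of all genes tested, with a median of -0.30. Rpl14 read 13.52, 13.29 and 13.37 in spinal cord proliferative cells against 13.94, 14.00 and 14.04 in brain proliferative cells, a difference of -0.60 ± 0.08 (SE, limma adjusted p = 5.98e-05). Rpl18 differed by -0.57, Rpl11 by -0.45 and Rpl4 by -0.44. These 4 calls held under every alternative run on the same probe sets, whereas the count of 28 was 14 when arrays were centred on the other bright genes and 10 after quantile normalisation.

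In differentiated cells the order was reversed: 24 genes were higher in spinal cord than in brain cells and 1, Rpl26l1, was lower, against 22.3% and 22.4% of all genes tested, with a median of 0.27. Rps28 read 14.11, 13.96 and 13.81 in spinal cord differentiated cells against 13.52, 13.50 and 13.39 in brain differentiated cells, a difference of 0.49 ± 0.08 (SE, limma adjusted p = 0.000404). Rpl22 differed by 0.45, Rpl12 by 0.45 and Rpl35a by 0.42. These 4 calls held under every alternative run on the same probe sets. The count of 24 was 13 without spinal cord differentiated replicate 1, 15 without brain differentiated replicate 2 and 10 when every array was centred on its median. All 38 bright genes were lower in spinal cord cells in the proliferative state (32 after quantile normalisation) and higher in spinal cord cells in the differentiated state (37 after quantile normalisation). In all, 11 members (23.9% of 46) were called in these directions in both tissue comparisons and both differentiation comparisons, as were 2.10% of all genes tested. These comparisons share arrays.

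Rps4y2 differed most between the tissues of all members tested. Its name recalls the RPS4Y genes of the human Y chromosome, but RefSeq places the rat gene on chromosome 4. It read 9.01, 9.24 and 8.98 in spinal cord proliferative cells against 6.23, 6.63 and 6.05 in brain proliferative cells, a log2 difference of 2.77 ± 0.19 (SE, limma adjusted p = 1.22e-07). In differentiated cells it read 9.33, 9.15 and 9.15 in spinal cord against 6.07, 5.81 and 5.73 in brain cells, where all 3 arrays were under the detection limit, so spinal cord cells were at least 7.52-fold higher (limma adjusted p = 1.15e-08). The 2 tissues were far apart in both states, and neither tissue had a called change on differentiation. The brain change of -0.43 (limma adjusted p = 0.0745) was called at -0.56 without brain proliferative replicate 3, at -0.585 after median centring, at -0.63 after quantile normalisation and at -0.43 without the intensity trend.

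As a set, the dim members did not follow the bright set in spinal cord cells. Of the 8 tested genes with a mean under 13, 4 had a positive and 4 a negative change there, with a median of -0.03. In brain cells 2 were positive and 6 negative, with a median of -0.33. Rpl26l1, a paralogue of Rpl26, read 6.20, 6.22 and 6.48 in spinal cord differentiated cells against 7.41, 7.53 and 7.22 in spinal cord proliferative cells, a log2 change of -1.09 ± 0.20 (SE, limma adjusted p = 0.000675). It was the only tested member with a called fall in spinal cord cells, and this call held under every alternative run on its probe set. In brain cells it read 6.98, 6.74 and 6.78 in differentiated against 7.19, 7.32 and 7.26 in proliferative cells, a change of -0.43 that was not called (limma adjusted p = 0.0975) and that was called at -0.58 after median centring and after quantile normalisation, and at -0.43 without the intensity trend. Its lower level in spinal cord than in brain differentiated cells (-0.54, limma adjusted p = 0.0455) was lost in 11 of the 12 fits that left out 1 array, all but the fit without spinal cord differentiated replicate 3.

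The probe set named Rpl28 rose on differentiation in both tissues. It read 7.15, 7.19 and 7.20 in spinal cord differentiated cells against 6.35, 6.64 and 5.79 in spinal cord proliferative cells, a change of 0.92 ± 0.26 (SE, limma adjusted p = 0.011), and 7.26, 7.09 and 7.32 in brain differentiated cells against 6.64, 6.56 and 6.12 in brain proliferative cells, a change of 0.78 ± 0.26 (SE, limma adjusted p = 0.0226). The brain call was lost without brain proliferative replicate 3, without brain differentiated replicate 1 or 3, and when every array was centred on its median. Rps13 read 5.44, 6.07 and 5.98 in brain differentiated cells, all under the detection limit, against 6.61, 7.02 and 6.63 in brain proliferative cells, at least 1.37-fold lower in differentiated cells (limma adjusted p = 0.0324), a call lost in 5 of the 12 fits that left out 1 array (those without brain proliferative replicate 1, 2 or 3 or brain differentiated replicate 1 or 3). Rpl28, Rps13 and Rpl30 belong to the core of the ribosome, and the same 3 symbols are also listed, beside other symbols, on bright probe sets with means of 13.50 to 14.07. Their own single-symbol probe sets (6.78, 6.20 and 5.45) therefore need not report the main transcript.

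Rpl39, a small protein of the exit tunnel, varied between replicates and passed no test on all 12 arrays: it read 7.31, 7.08 and 9.26 in spinal cord differentiated cells against 8.67, 8.21 and 7.86 in spinal cord proliferative cells. Its change in spinal cord cells was -0.36, and without spinal cord differentiated replicate 3 it was called at -1.05 (limma adjusted p = 0.00735). Its difference between spinal cord and brain differentiated cells was -0.63, and without that array it was called at -1.32 (limma adjusted p = 0.00164). Rps27l, a paralogue of Rps27 known as a p53 target, read 10.82, 10.97 and 10.99 in spinal cord differentiated cells against 10.65, 10.77 and 11.12 in spinal cord proliferative cells, and also passed no test in the deposited scaling. When every array was centred on its median, it was called lower in spinal cord than brain proliferative cells, at -0.46. Rpl39l1 lay close to the detection limit in all groups with no called change. Rpl30 and Rpl3l, the paralogue of Rpl3 known from heart and skeletal muscle, were under the limit on all 3 arrays of every group and were not tested.

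**Figure D4:**
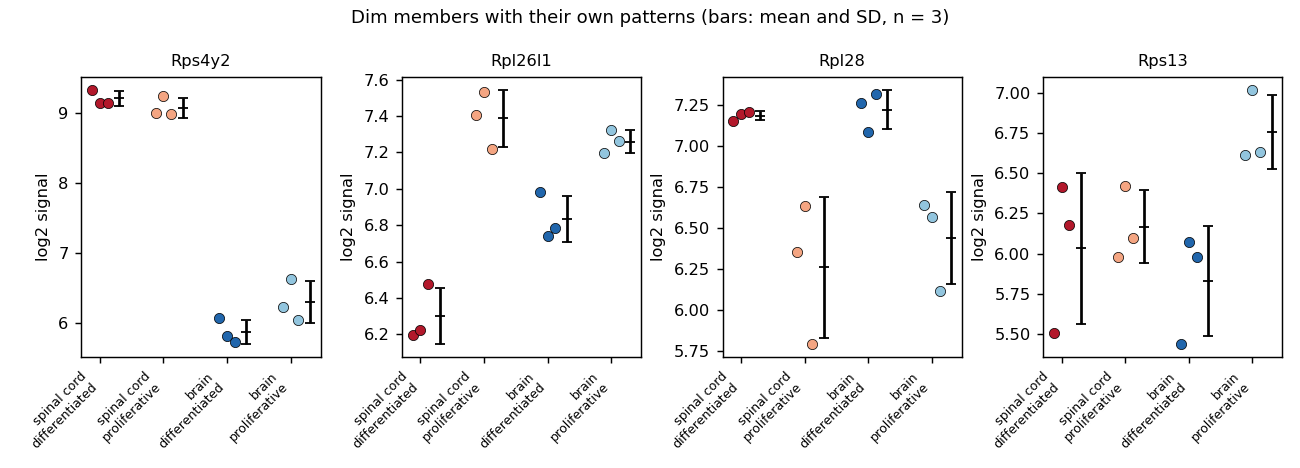
Log2 signal of Rps4y2, Rpl26l1, Rpl28 and Rps13 on each array, with the mean and SD of 3 arrays per group; each panel has its own vertical range. Rps4y2 is near 9 in both spinal cord groups and near 6 in both brain groups, Rpl26l1 is lowest in spinal cord differentiated cells, Rpl28 is higher in both differentiated groups and Rps13 is highest in brain proliferative cells.

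Of the members, 6 had more than 1 probe set. All 7 further probe sets had a positive interaction, as had those that stood for the genes. Calls differed for some of them: second probe sets of Rpl14 and Rpl7 had changes of -0.93 and -0.32 in brain cells that were not called, and the further probe sets of Rpsa had uncalled changes of 0.06 and 0.11 in spinal cord cells. A further 36 probe sets list a ribosomal protein symbol together with others and were kept out of the members because their signal cannot be given to 1 gene. In spinal cord cells 21 of the 36 rose and 2 fell, with a median of 0.27, and in brain cells none rose and 31 fell, with a median of -0.40. After quantile normalisation 3 rose and 2 fell in spinal cord cells and 28 fell in brain cells. In the deposited scaling their interaction was positive and called in 32 and negative and called in none. Of all 20834 probe sets tested, 3806 rose and 4590 fell in spinal cord cells, and 4942 rose and 4821 fell in brain cells. Over the same 20834 probe sets the interaction was positive and called in 3916 and negative and called in 4518. Rack1, a small-subunit component that scaffolds signalling proteins and falls outside the naming rule, rose by 0.39 in spinal cord cells and fell by 0.46 in brain cells, with an interaction of 0.85 ± 0.13 (SE, limma adjusted p = 0.000226).

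Genes that make or use ribosomes were examined through lists drawn from general knowledge of each process. The shares of all genes tested that rose and fell were 20.9% and 22.6% in spinal cord cells and 24.1% and 28.5% in brain cells. Their interaction was positive and called in 23.7% and negative and called in 21.2%. The factors that assemble ribosomes in the nucleolus had a fall in brain cells with no matching rise in spinal cord cells. Of 34 ribosome biogenesis genes, 3 rose and 8 fell in spinal cord cells, with a median of -0.15. In brain cells none rose and 33 fell, with a median of -1.08. The interaction was positive and called in 29 of the 34 and negative and called in 0, with a median of 0.96. Nhp2, a protein of the small nucleolar particles that modify ribosomal RNA, fell by 0.47 in spinal cord cells and by 1.68 in brain cells. Tsr1, a factor of small-subunit assembly, rose by 0.70 in spinal cord cells and fell by 0.77 in brain cells. The RNA polymerase I list had no rise and 3 falls among 12 genes in spinal cord cells and 1 rise and 8 falls in brain cells.

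Translation factors lay between these patterns. For all genes tested, the rising and falling shares were 20.9% and 22.6% in spinal cord cells, and 24.1% and 28.5% in brain cells. Called interactions were positive in 23.7% and negative in 21.2% of all genes tested. Of 25 initiation genes, 4 rose and 3 fell in spinal cord cells, with a median of 0.01. In brain cells none of the 25 rose and 22 fell, with a median of -0.46. Their interaction was positive and called in 18 and negative and called in 0, with a median of 0.58. Eif6, which keeps the large subunit from joining too early, rose by 0.38 in spinal cord cells and fell by 1.24 in brain cells. Of 10 elongation genes, 3 rose and 1 fell in spinal cord cells, and none rose and 6 fell in brain cells. The interaction of these 10 was positive and called in 6 and negative and called in 1, with a median of 0.64. The list of 14 other transcripts known to carry the TOP motif had 7 rises and 1 fall in spinal cord cells, with a median of 0.22, and 1 rise and 9 falls in brain cells, with a median of -0.46. Among them were the elongation factors Eef1b2, at 0.36 in spinal cord and -0.63 in brain cells, and Eef2, at 0.28 and an uncalled -0.20. After quantile normalisation this list had 2 rises and 2 falls in spinal cord cells and 1 rise and 9 falls in brain cells. It overlaps the initiation and elongation lists.

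Other protein complexes served for comparison, against the same shares of all genes tested. Those were 20.9% rising and 22.6% falling in spinal cord cells, and 24.1% rising and 28.5% falling in brain cells. For the interaction they were 23.7% positive and 21.2% negative. The mitochondrial ribosomal proteins, which are encoded by separate nuclear genes, had 9 rises and 9 falls among 73 genes in spinal cord cells, with a median of -0.01. In brain cells they had 1 rise and 50 falls, with a median of -0.43. Their interaction was positive and called in 35 and negative and called in 1, with a median of 0.44. The 20S proteasome core had 4 rises and no fall among 13 genes in spinal cord cells and 1 rise and 11 falls in brain cells, and 11 of the 13 had a called positive interaction. After quantile normalisation the proteasome list had 3 rises and 1 fall in spinal cord cells and 1 rise and 11 falls in brain cells.

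**Figure D5:**
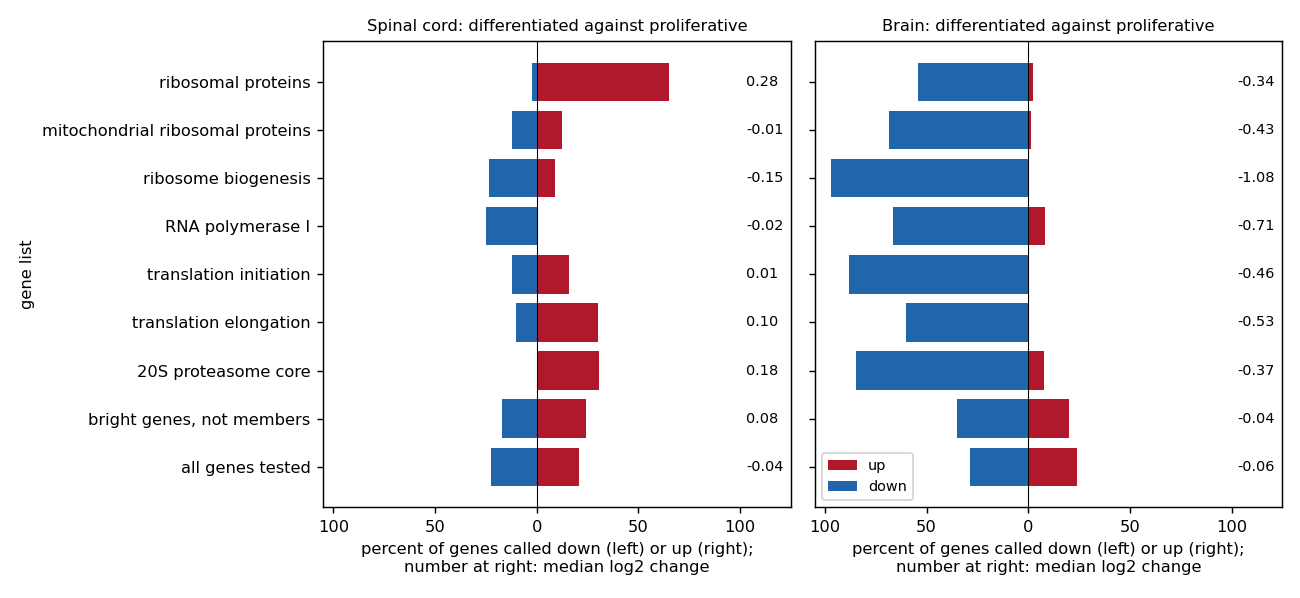
Percent of the genes of each list called lower (blue, left) or higher (red, right) in differentiated than in proliferative cells, for spinal cord and for brain cells, with the median log2 change printed at the right of each bar. In spinal cord cells the ribosomal proteins have the longest red bar of the lists drawn (30 of 46), and in brain cells every list except the bright genes and all genes tested has most of its genes on the blue side.

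Known upstream regulators showed mixed changes. Of 22 genes of the mTORC1 and Myc pathways, 4 rose and 4 fell in spinal cord cells and 9 rose and 4 fell in brain cells. Among all genes tested, 20.9% rose and 22.6% fell in spinal cord cells, and 24.1% rose and 28.5% fell in brain cells. The spinal cord counts of this list lay near those shares. Myc, a transcription factor that drives ribosome production, averaged 10.45 ± 0.03 in spinal cord differentiated and 10.82 ± 0.23 in spinal cord proliferative cells, and 9.80 ± 0.04 in brain differentiated and 10.96 ± 0.23 in brain proliferative cells (SD, n = 3 each). It fell in both tissues, by 0.36 in spinal cord and by 1.16 in brain cells. Mycn fell by 1.21 in spinal cord cells and rose by 1.31 in brain cells, the opposite of the ribosomal proteins. Eif4ebp1, a translation repressor held inactive by mTORC1, had an uncalled 0.19 in spinal cord cells and fell by 1.58 in brain cells. Larp1, which binds TOP messages, had an uncalled 0.32 in spinal cord cells and fell by 0.74 in brain cells. Of 8 genes linked to p53 and nucleolar stress, 1 rose in spinal cord cells, and 3 rose and 1 fell in brain cells.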

How the data were processed

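Total RNA of 12 samples was amplified with a 3′ in vitro transcription kit and hybridised to the Rat230_2 array, per the labels' protocols. The deposited values are log2 MAS5 signals; MAS5 and affy are named, without versions, per the submitters' processing notes. The 2% trimmed mean of the linear signal was 500 on every array, so signals are relative to the array total. Of the table's 31099 probe sets, 57 are controls and were not used. Gene symbols came from the platform annotation: 20826 probe sets had 1 symbol, 436 several and 9780 none, and 20758 of the first were matched to current RefSeq names by gene identifier (46 of the 48 members, all but Rpl37a and Rps9, which keep the annotation's symbol).

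Probe sets above the array's 40th percentile on at least 3 arrays (20834, or 11218 genes) entered 1 limma 3.58.1 model in R 4.3.3 with an intensity trend, 4 group means and 5 contrasts, and p-values were adjusted by Benjamini-Hochberg over all of them, with a threshold of 0.05. The procedure was tested on simulated data with 50 changed probe sets of each of 4 sizes among 20834. It called 0% of log2 changes of 0.3, 18% of 0.5, 56% of 1 and 88% of 2, and 1.22% of its calls were false. Nearly all simulated probe sets were unchanged, unlike in these data, so these shares do not carry over to the members. A group with all 3 arrays under the 40th percentile was treated as not detected, and folds against it are lower bounds. The median signal of an array was 6.87 to 7.22, and the Gapdh 3′ minus 5′ difference was -0.13 to 0.13. The number of arrays, 3 in each group, limits the precision.

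The members and gene lists were chosen with earlier results of these data known. Named members were the 5 with the largest called change in each direction of each comparison of groups (4 for the interaction), those with a role fixed in the design such as stalk, 5S particle and Rps6, paralogue pairs, and the 3 brightest and 3 dimmest. Alternatives were 3 other scalings, other filters, a pseudocount of 64, no trend, a replicate block, other probe set choices and each array left out. Replicate numbers were not used to pair samples. Figures were drawn with matplotlib 3.10.9.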

Additional observations from a re-analysis of the deposited data

Results flagged for a closer look

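The responses to differentiation differed between the tissues by a test of the difference itself (limma interaction term, adjusted over all probe sets) in 37 member genes, all with the higher response in spinal cord cells. Among named large-subunit genes the spinal cord change minus the brain change was 0.89 for Rpl18, 0.85 for Rpl11, 0.84 for Rpl35a, 0.83 for Rpl12 and Rpl22, 0.82 for Rpl14, 0.75 for Rpl24 and 0.72 for Rpl4. It was 0.69 for Rpl41, 0.63 for Rpl7l1, 0.60 for Rpl13a, 0.53 for Rpl7, 0.50 for Rpl26 and Rpl3 and 0.49 for Rpl5. Among named small-subunit genes it was 0.74 for Rps28, 0.71 for Rps9, 0.63 for Rps3, 0.59 for Rpsa, 0.52 for Rps23 and 0.49 for Rps6. The Rpl26 call was lost without brain differentiated replicate 2 or 3 or spinal cord differentiated replicate 1. The other calls in this paragraph on named genes held in all 12 fits that left out 1 array. What accounts for the difference was not tested.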

How the results depend on the processing

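The interaction of the 38 bright genes was positive in all 38 in every fit that left out 1 array and under the other centrings, filters, pseudocount, trend and block settings, and in 37 after quantile normalisation. The sign within a comparison was less stable: after quantile normalisation 9 bright genes were negative in spinal cord cells, 4 positive in brain cells and 6 positive between proliferative tissues. For the named genes, 150 results gave 2980 values under the alternatives, of which 2705 stayed on their side of the threshold, 197 dropped out of the calls and 77 entered them. The sign differed in 39 values, 38 of them of changes not called in the deposited scaling. The other was Rps29 in spinal cord cells, with a change of -0.026 (limma adjusted p = 0.696) after quantile normalisation. Median centring, which moved the median change of all probe sets to -0.15 in brain cells, -0.22 between tissues in proliferative cells and 0.19 in the interaction, gave members' medians of -0.49, -0.51 and 0.79 there. Under it 0 members rose in brain cells, and 10 were higher and 0 lower in spinal cord than brain differentiated cells. Centring on other bright genes, chosen after seeing the data, gave 14 members lower in spinal cord than brain proliferative cells (median -0.15), 0 lower in differentiated cells, and an interaction negative in 1 (median 0.40). Quantile normalisation gave a brain median of -0.21, 3 rises in spinal cord cells (median 0.059), 10 members lower in spinal cord proliferative cells (median -0.10), a median of 0.15 and 0 lower in differentiated cells, and 19 positive interactions (median 0.24).

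Testing all probe sets left 18 rises in spinal cord cells and 0 lower in spinal cord differentiated cells. The stricter filter left the dim probe sets of Rpl28 and Rpl26l1 untested. Its counts of 0 rises in brain cells, 0 falls in spinal cord cells and 0 lower in spinal cord than brain differentiated cells are therefore not lost calls. With the pseudocount of 64 Rpl26l1 was tested and its lower level in spinal cord differentiated cells was not called (limma adjusted p = 0.0577), which left 0 lower there. Without the trend 15 members rose in spinal cord cells and 1 interaction was negative. Leaving out 1 array gave 0 to 1 rises in brain cells, 13 to 32 rises and 1 to 2 falls in spinal cord cells, and 13 to 36 higher and 0 to 2 lower in spinal cord than brain differentiated cells. The lowest of these, 13, came in both comparisons without spinal cord differentiated replicate 1. Same-numbered replicates did not deviate together (correlations of -0.12 to 0.05, against -0.11 to 0.15 for other pairs), and the replicate block left 0 members lower in spinal cord than brain differentiated cells. Causes were not tested.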

Other observations

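Factors that rescue or release stalled ribosomes did not move as one group. Of 9 genes, 2 rose and 3 fell in spinal cord cells, and 1 rose and 5 fell in brain cells. Among all genes tested, 20.9% rose and 22.6% fell in spinal cord cells, and 24.1% rose and 28.5% fell in brain cells. Pelo, which splits stalled ribosomes, rose by 0.37 in spinal cord cells and fell by 0.41 in brain cells. Ltn1, the ubiquitin ligase of stalled large subunits, fell by 0.42 in spinal cord cells and had an uncalled -0.01 in brain cells. Gas5, a TOP transcript that hosts small nucleolar RNAs, fell in both tissues, by 0.31 in spinal cord and by 0.61 in brain cells.

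Markers of cycling cells averaged 10.43 to 10.50 in spinal cord differentiated, 10.72 to 11.72 in spinal cord proliferative, 10.41 to 10.49 in brain differentiated and 10.14 to 10.57 in brain proliferative cells. Of these 4 markers, 0 rose and 2 fell on differentiation in spinal cord cells, and 1 rose and 1 fell in brain cells. The highest average, 11.72, was spinal cord proliferative replicate 1, which also had the highest ribosome biogenesis median of its group (10.30). Neuronal markers averaged 6.63 to 7.07 in spinal cord differentiated cells against 8.80 to 9.47 in spinal cord proliferative cells, and 8.55 to 8.64 in brain differentiated cells against 9.72 to 10.69 in brain proliferative cells. Microglial markers averaged 8.59 to 8.91 in spinal cord differentiated cells against 8.96 to 9.92 in spinal cord proliferative cells, and 7.76 to 7.86 in brain differentiated cells against 5.94 to 6.54 in brain proliferative cells. Of these 4 markers, 0 rose and 2 fell on differentiation in spinal cord cells, and 3 rose and 1 fell in brain cells.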
